A study of Mus musculus with 16 samples.

Results

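Interstitial macrophages are the tissue macrophages of the lung that lie outside the air spaces, around airways, vessels and nerves. They take up debris, make the complement component C1q and present antigen on MHC class II. A perivascular form carries the scavenger and lectin receptors Lyve1, Mrc1 and Cd163, while another form is rich in MHC class II, and both differ from the alveolar macrophages of the air spaces, which live on surfactant. Sympathetic nerves reach the lung vessels and airways and release norepinephrine and neuropeptide Y, which act on receptors that macrophages can carry.

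The cells described here are those that the deposited cell table annotates as interstitial macrophages. They were 3295 of 80449 lung cells, or 4.10%, in mouse lungs that were dissociated with enzymes, sorted for live single cells, fixed and profiled with split-pool barcoding (Evercode WT v3). Mice had received 6-OHDA, a toxin that enters and destroys sympathetic nerve terminals, BIBO3304, an antagonist of the neuropeptide Y receptor NPY1R, or vehicle. Each treatment was given with and without seeding of pancreatic ductal adenocarcinoma (PDAC) cells. The 6 groups are called 6-OHDA-PDAC, BIBO3304-PDAC and vehicle-PDAC where PDAC cells were seeded, with 2 samples each, and 6-OHDA, BIBO3304 and vehicle where they were not, with 3 samples each. Strain, age, dose, duration and the PDAC line are not given in the sources at hand, nor is it said whether each numbered sample is 1 mouse. The p-values therefore measure the spread between these samples, which may in part be technical.

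Sample 2 of vehicle-PDAC stands apart from its label. It held none of the 308 annotated cancer cells of the seeded samples, whereas sample 1 of vehicle-PDAC held 56. The unseeded vehicle samples held 2, 1 and 1, and the 6-OHDA and BIBO3304 samples held none. Whether PDAC cells had been seeded in this lung cannot be told from the files. Values against vehicle-PDAC are therefore also given without sample 2. In that fit vehicle-PDAC is 1 sample, which is assumed to vary like the samples of the other groups, so a call kept there is no replicate check. The deposited GEO entries are 16 sublibraries that each hold cells of all 15 samples, so they are not replicates. Of 70289 cell barcodes, 8740 occurred in more than 1 sublibrary, and none of the 75 first-round barcode wells was shared between samples.

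The annotation was compared with the markers given for these cells, as a description without a test. Pooled over all samples, C1qa stood at 237 CPM (transcript counts scaled to a common library total) in interstitial macrophages, the highest of the 22 annotated types, and the next type reached 23.5 CPM. Cd163, a hemoglobin scavenger receptor, stood at 141 CPM, against at most 6.54 CPM elsewhere. Retnla, a secreted protein of alternatively activated macrophages, stood at 182 CPM, against 83.8 CPM in club cells. Mrc1, the mannose receptor, stood at 1231 CPM and was second to alveolar macrophages, which had 2289.6 CPM. After each cell was thinned to 1000 transcripts, 27.4% of 2906 interstitial macrophages held a C1q transcript, against 1.60% of monocytes, 1.34% of dendritic cells, 0.798% of alveolar macrophages and 0.654% of T cells. MHC class II transcripts were found in 88.9% of interstitial macrophages and in 12.6% of T cells, which should lack them. Dendritic cell markers were found in 10.1% of interstitial macrophages, against 49.6% of dendritic cells, and alveolar macrophage markers in 6.13%, against 59.4% of alveolar macrophages. The T cell shares for these sets were 17.3% and 4.36%. Dendritic cell markers (Cd209a, Flt3, Zbtb46, Ccr7, Xcr1 and Clec9a) were found in 3.02% of monocytes and 1.89% of alveolar macrophages, so their share in interstitial macrophages lay above that of these cells. T cells can carry Ccr7 themselves, so their share is not a background for this set. How the authors assigned types is not given in the sources used here. A change in which cells received the label and a change inside the same cells cannot be told apart in any comparison that follows.

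The interstitial macrophages held 10552440 transcripts in all, from 206644 in sample 3 of 6-OHDA, with 78 cells, to 2090468 in sample 1 of 6-OHDA-PDAC, with 514 cells. The median cell had 2452 transcripts. Counts were summed over the interstitial macrophages of each sample, and 6443 genes were tested with the quasi-likelihood test of edgeR, with Benjamini-Hochberg adjustment over all of them. A gene is said to have risen or fallen only where its adjusted p was under 0.05. Levels are CPM scaled by TMM, one value per sample, and differences are log2 fold changes with their standard error. Levels are not divided by gene length, so they are compared between samples and not between genes. Where the groups of a gene named for passing the test are said not to overlap, this is a description and adds no support. The share of all genes without overlap is not given.

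The share of interstitial macrophages among all lung cells was highest in 6-OHDA-PDAC. It was 12.996% and 9.75% in 6-OHDA-PDAC, 3.92% and 9.58% in BIBO3304-PDAC, and 3.86% and 3.18% in vehicle-PDAC. In unseeded lungs it was 3.13%, 4.73% and 2.22% in 6-OHDA, 2.44%, 1.57% and 2.42% in BIBO3304, and 2.27%, 2.99% and 2.11% in vehicle. Both 6-OHDA-PDAC samples lay above every other sample, and the 2 samples of BIBO3304-PDAC lay far apart. The share rose in 6-OHDA-PDAC relative to 6-OHDA by 1.76 ± 0.37 on the log2 scale (edgeR on cell numbers, adjusted p = 0.00341 over 22 types), with 3 of the 22 types called, or 13.6%. It rose in BIBO3304-PDAC relative to BIBO3304 by 1.65 ± 0.38 (adjusted p = 0.00607), with 7 types called, or 31.8%, but among macrophages, monocytes, dendritic cells and neutrophils alone the difference was 0.85 and did not pass (adjusted p = 0.0690). Exact two-sided permutation tests gave p = 0.1 for each of these comparisons, the smallest p that 2 against 3 samples allow.

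**Figure D1:**
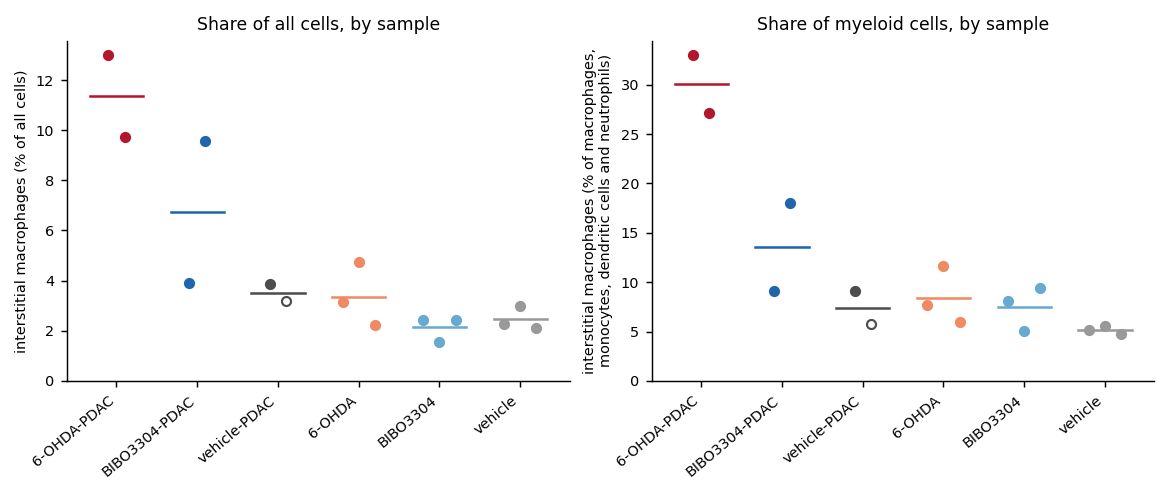
Interstitial macrophages as a percent of all lung cells (left) and of macrophages, monocytes, dendritic cells and neutrophils (right) in each sample, by group, with a horizontal line for the group mean and an open circle for sample 2 of vehicle-PDAC. The 6-OHDA-PDAC samples at 12.996% and 9.75% lie above all others.

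The corresponding difference between vehicle-PDAC and vehicle was 0.52 ± 0.37 (adjusted p = 0.961, exact p = 0.2), and without sample 2 of vehicle-PDAC it was 0.65. In the comparison of 6-OHDA-PDAC with vehicle-PDAC, in which 4 of 22 types were called, or 18.2%, the share rose by 1.69 ± 0.42 with both vehicle-PDAC samples and by 1.56 without sample 2 (adjusted p = 0.0108 and 0.0365), and the call was lost without sample 1 of 6-OHDA-PDAC (adjusted p = 0.0644). It was also lost when alveolar macrophages were left out of the total (1.23, adjusted p = 0.0698), and alveolar macrophages were 14.3% and 13.6% of cells in 6-OHDA-PDAC and 30.8% and 44.5% in vehicle-PDAC. The exact two-sided permutation p was 0.333, the smallest that 2 against 2 samples allow. The rise over 6-OHDA likewise lost it without that sample (adjusted p = 0.0614), and the rise of BIBO3304-PDAC over BIBO3304 shrank to 0.86 without sample 2 of BIBO3304-PDAC (adjusted p = 0.170). Among macrophages, monocytes, dendritic cells and neutrophils alone, interstitial macrophages were 33.03% and 27.1% in 6-OHDA-PDAC, 9.09% and 18.0% in BIBO3304-PDAC, 9.08% and 5.75% in vehicle-PDAC, 7.71%, 11.6% and 5.96% in 6-OHDA, 8.09%, 5.01% and 9.38% in BIBO3304, and 5.16%, 5.55% and 4.77% in vehicle. A higher share can come from more interstitial macrophages or from fewer other cells, and the 2 cannot be told apart from shares.

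The first gene comparison set 6-OHDA-PDAC against vehicle-PDAC, which asks how nerve ablation bore on interstitial macrophages in seeded lungs. Fewer genes rose than fell, with 21 higher, or 0.326% of those tested, and 206 lower, or 3.2%. Receptors and secreted proteins of resident perivascular macrophages were among the falls. Of the 17 genes listed for this form, 15 passed the filter on low counts, and 7 of these fell and none rose. Without sample 2 of vehicle-PDAC 4 fell, namely Mrc1, Cd163, F13a1 and Timd4. With both samples, the list's median log2 fold change was -1.51, against 0.02 over all genes. The summed level of the list was 882 and 635 CPM in 6-OHDA-PDAC and 2132 and 3983 CPM in vehicle-PDAC.

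Mrc1 stood at 419 and 313 CPM in 6-OHDA-PDAC and at 1186 and 2047 CPM in vehicle-PDAC. The groups did not overlap, and the log2 fold change was -2.14 ± 0.33 (adjusted p = 0.000910), or -1.69 ± 0.35 without sample 2 of vehicle-PDAC (adjusted p = 0.0104). Retnla stood at 21.2 and 27.2 CPM in 6-OHDA-PDAC and at 139 and 592 CPM in vehicle-PDAC. Its log2 fold change was -3.90 ± 0.55 (adjusted p = 0.000341), and -2.52 ± 0.45 without that sample (adjusted p = 0.00367). Cd163 stood at 44.3 and 17.0 CPM in 6-OHDA-PDAC and at 133 and 311 CPM in vehicle-PDAC, with log2 fold changes of -2.81 ± 0.50 (adjusted p = 0.00215) and, without sample 2, -2.08 ± 0.50 (adjusted p = 0.0359). For all 3 genes sample 2 of vehicle-PDAC was the highest of the 4 seeded samples and lay within the range of the unseeded samples, and the fall was smaller without it.

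Of the other resident genes that fell, some kept their call without sample 2 of vehicle-PDAC and some lost it. F13a1, the A subunit of coagulation factor XIII, stood at 156 and 121 CPM in 6-OHDA-PDAC and at 392 and 828 CPM in vehicle-PDAC (-2.13 ± 0.34, adjusted p = 0.00100), and kept its call without sample 2 (-1.50 ± 0.34, adjusted p = 0.0206). Timd4, a receptor for phosphatidylserine on dying cells, stood at 17.6 and 9.53 CPM in 6-OHDA-PDAC and at 85.6 and 79.0 CPM in vehicle-PDAC, and its log2 fold change was -2.55 ± 0.53 with sample 2 and -2.61 ± 0.58 without it (adjusted p = 0.00705 and 0.0205). Pooled over all samples, Timd4 was higher in annotated dendritic cells, at 519 CPM, than in interstitial macrophages, at 68.2 CPM. The chemokine Pf4 stood at 32.7 and 27.9 CPM in 6-OHDA-PDAC and at 49.2 and 129 CPM in vehicle-PDAC, and lost its call without sample 2 (adjusted p = 0.0195 with it and 0.603 without it). Cbr2, a carbonyl reductase, also lost its call (adjusted p = 0.0143 with sample 2 and 0.249 without it). Selenop, the selenium carrier, stood at 59.9 and 37.5 CPM in 6-OHDA-PDAC and at 84.7 and 235 CPM in vehicle-PDAC (-1.68 ± 0.41, adjusted p = 0.0206; -0.78 ± 0.40 and adjusted p = 0.580 without sample 2). Lyve1, the hyaluronan receptor that names the perivascular form, stood at 23.7 and 7.49 CPM in 6-OHDA-PDAC and at 21.7 and 52.6 CPM in vehicle-PDAC and did not pass the test (-1.14 ± 0.60, adjusted p = 0.408).

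**Figure D2:**
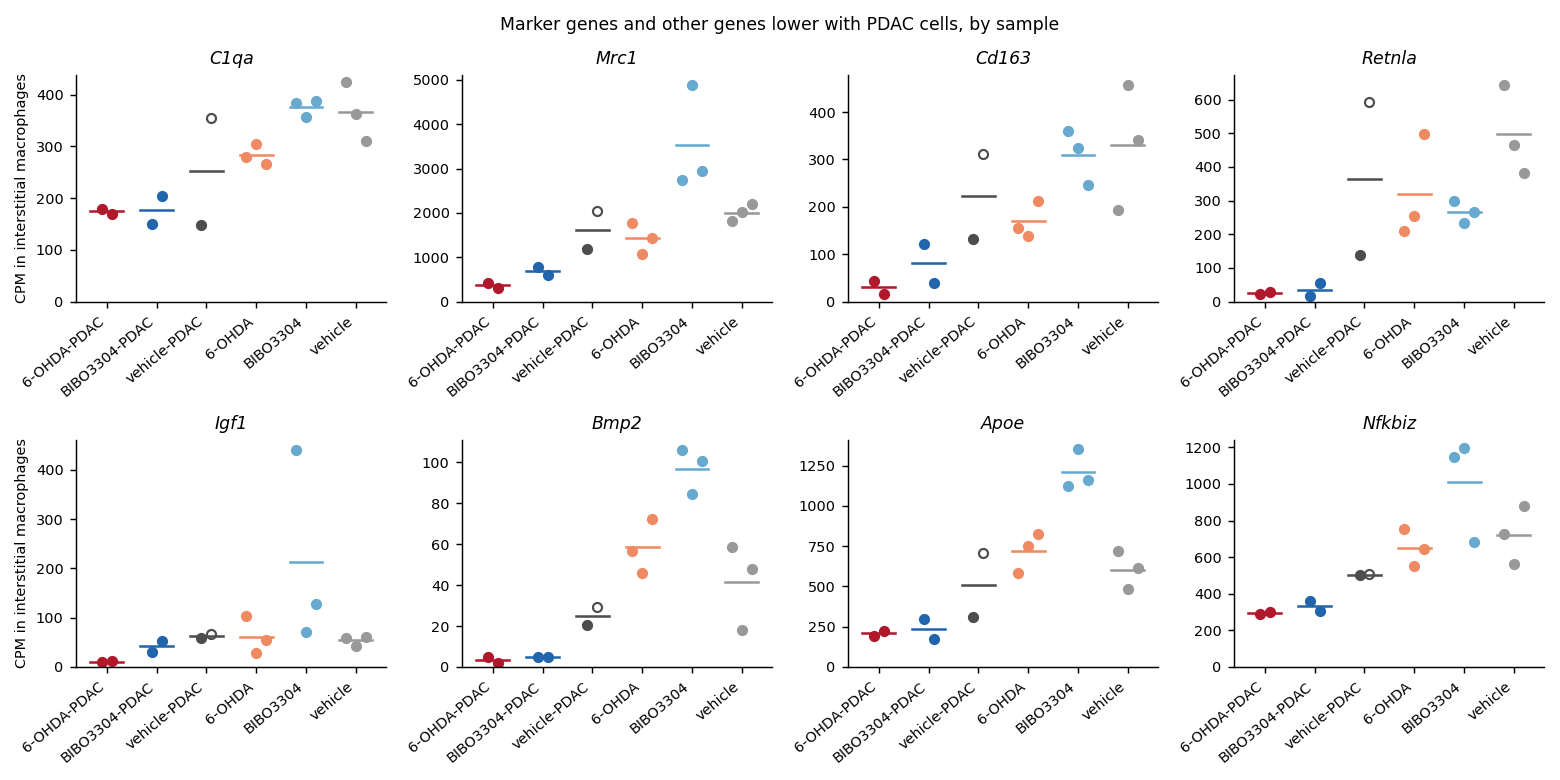
Levels of C1qa, Mrc1, Cd163, Retnla, Igf1, Bmp2, Apoe and Nfkbiz in CPM on linear axes, one point per sample by group, with a horizontal line for the group mean and an open circle for sample 2 of vehicle-PDAC. Mrc1 lies at 419 and 313 CPM in 6-OHDA-PDAC, below every other sample, and sample 2 of vehicle-PDAC, at 2047 CPM, lies among the unseeded samples.

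Other falls passed the test with both vehicle-PDAC samples and with sample 1 alone. Slco2b1, a transporter of organic anions, stood at 4.53 and 2.04 CPM in 6-OHDA-PDAC and at 32.5 and 40.9 CPM in vehicle-PDAC (-3.34 ± 0.55, adjusted p = 0.00133; -3.17 ± 0.63 and 0.00892 without sample 2). Cd209c, a C-type lectin of the DC-SIGN family, stood at 5.54 and 4.77 CPM in 6-OHDA-PDAC and at 61.0 and 38.0 CPM in vehicle-PDAC (-3.23 ± 0.46, adjusted p = 0.000341, and 0.000329 without sample 2). Mgl2, a galactose-binding lectin of alternatively activated macrophages, stood at 83.6 and 93.3 CPM in 6-OHDA-PDAC and at 409 and 292 CPM in vehicle-PDAC (-1.99 ± 0.32, adjusted p = 0.00100, and 0.00129 without sample 2). Blnk, an adaptor of immune receptor signalling, and Nav2, a cytoskeletal protein, each had an adjusted p of 4.09e-05. Blnk stood at 28.2 and 23.2 CPM in 6-OHDA-PDAC and at 152 and 190.1 CPM in vehicle-PDAC, and Nav2 at 31.2 and 23.2 CPM in 6-OHDA-PDAC and at 189 and 235 CPM in vehicle-PDAC. Both genes were lower in every 6-OHDA-PDAC sample than in any sample of the other 5 groups, and both kept their call without sample 2 (adjusted p = 0.000243 each). The metallothionein Mt2 stood at 19.6 and 21.8 CPM in 6-OHDA-PDAC and at 71.9 and 148 CPM in vehicle-PDAC (-2.38 ± 0.35, adjusted p = 0.000600, and 0.0104 without sample 2). Of the 55 genes named for this comparison, 9 were called under every alternative in which they were tested. They were Retnla, Slco2b1, Cd209c, Chsy3, Ctnnd2, Mrc1, Arg1, Mgl2 and Mt2.

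Genes that rose in 6-OHDA-PDAC relative to vehicle-PDAC included the arginine-degrading enzyme Arg1, complement factor B (Cfb), the matrix protein Spon1, the chemokine Cxcl9 and the interferon-induced GTPase Gbp2. Arg1 had 89 and 71 transcripts in 6-OHDA-PDAC and 0 and 1 in vehicle-PDAC (adjusted p = 0.000600, and 0.00169 without sample 2). The BIBO3304-PDAC samples had 2 and 10 transcripts of it. With so few transcripts in vehicle-PDAC, no fold change is given for this gene. Spon1 stood at 35.3 and 57.2 CPM in 6-OHDA-PDAC and at 3.94 and 8.77 CPM in vehicle-PDAC (2.90 ± 0.49, adjusted p = 0.00143, and 0.00470 without sample 2). Cfb stood at 43.3 and 53.8 CPM in 6-OHDA-PDAC and at 9.84 and 7.31 CPM in vehicle-PDAC, and its call was lost without sample 2 (adjusted p = 0.00484 and 0.0521). Of the 11 tested genes of the interferon gamma response, 2 rose and none fell, with a median of 0.95. Cxcl9 stood at 41.3 and 93.3 CPM in 6-OHDA-PDAC and at 14.8 and 1.46 CPM in vehicle-PDAC, and Gbp2 at 53.9 and 63.3 CPM in 6-OHDA-PDAC and at 14.8 and 17.5 CPM in vehicle-PDAC. Neither passed without sample 2 (adjusted p = 0.199 and 0.103).

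Without sample 2 of vehicle-PDAC, so with 2 samples against 1 and the spread taken from the other groups, 90 genes were called, 3 of them higher and 87 lower, and 86 of the 90 were also called with it. Without sample 1 of vehicle-PDAC there were 453. Leaving out sample 2 of 6-OHDA-PDAC left 30 calls and leaving out sample 1 left 71. Markers of other cells moved with the groups. The summed level of 15 alveolar macrophage markers was 549.6 and 402 CPM in 6-OHDA-PDAC and 352 and 1598 CPM in vehicle-PDAC, where sample 2 had the highest sum of all 15 samples. Of 9 tested markers 3 fell, namely Ear1, Krt79 and Fabp1. Krt79 stood at 11.1 and 10.9 CPM in 6-OHDA-PDAC and at 9.84 and 135 CPM in vehicle-PDAC, and without sample 2 its log2 fold change was 0.16 ± 0.65, that of Fabp1 0.15 ± 0.82 and that of Ear1 -1.04 ± 0.97, none of which passed. Sums of 12 dendritic cell type 2 markers were 1028 and 961 CPM in 6-OHDA-PDAC and 1236 and 775 CPM in vehicle-PDAC, with 4 of 11 tested members lower, namely Cd209a, Zbtb46, Kmo and Clec10a. Without sample 2 Zbtb46 kept its call (adjusted p = 0.00960), and Cd209a, Kmo and Clec10a lost theirs (adjusted p = 0.104, 0.0773 and 0.759). Classical monocyte markers (Ly6c2, Ccr2, Vcan and Fn1) were found in 53.7 and 58.4 percent of cells thinned to 1000 transcripts in 6-OHDA-PDAC and in 35.8 and 31.8 percent in vehicle-PDAC, and the groups did not overlap. Ccr2 alone overlapped, with 17.3 and 22.3 percent in 6-OHDA-PDAC and 20.8 and 12.3 percent in vehicle-PDAC. Over all samples the set was found in 41.3% of interstitial macrophages and in 32.6% of annotated monocytes, so it does not single out monocytes. Its shares without Fn1 were not computed. Of 10 tested genes of the longer monocyte list, Plac8 rose, at 109.8 and 148 CPM in 6-OHDA-PDAC and 41.3 and 30.7 CPM in vehicle-PDAC (1.81 ± 0.41, adjusted p = 0.0125, and 0.113 without sample 2). The summed level of the list was 2322 and 2315 CPM in 6-OHDA-PDAC and 1205 and 2303 CPM in vehicle-PDAC. The part of monocyte markers in the other results was not tested. Without the 625 cells with a dendritic cell transcript, 13 of 53 named genes lost their call, among them Pros1, Mt1, Cbr2, Hspa1b and Mmp14 (adjusted p = 0.0874, 0.0957, 0.111, 0.0533 and 0.0562), and the log2 fold change of Mrc1 was -2.25. Without the 718 cells that held a transcript of an alveolar macrophage gene, that of Mrc1 was -2.23.

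BIBO3304-PDAC was set against vehicle-PDAC in the same way, for blockade of NPY1R in seeded lungs. Here 3 genes were higher, or 0.0466%, and 26 lower, or 0.404%. The falls included Retnla, the adhesion protein Tenm4, the water and glycerol channel Aqp9, the semaphorin co-receptor Plxna4 and Blnk. Retnla stood at 16.6 and 54.4 CPM in BIBO3304-PDAC, against the vehicle-PDAC levels given above (-3.25 ± 0.55, adjusted p = 0.00906, and 0.126 without sample 2 of vehicle-PDAC). Tenm4 stood at 3.31 and 0.955 CPM in BIBO3304-PDAC and at 21.7 and 27.8 CPM in vehicle-PDAC (adjusted p = 0.0151, and 0.0836 without sample 2). Aqp9 stood at 3.31 and 5.73 CPM in BIBO3304-PDAC and at 24.6 and 46.8 CPM in vehicle-PDAC (-2.81 ± 0.54, adjusted p = 0.0203, and 0.140 without sample 2). Blnk stood at 46.4 and 48.7 CPM in BIBO3304-PDAC (-1.83 ± 0.30, adjusted p = 0.00906, and 0.0713 without sample 2). The genes that rose were Mmp14, a membrane-bound collagenase, the mitochondrial chaperonin Hspe1 and AA467197. Without sample 2 the adjusted p was 0.0713 for Hspe1, 0.0823 for AA467197 and 0.111 for Plxna4. Mmp14 stood at 123 and 115 CPM in BIBO3304-PDAC and at 56.1 and 17.5 CPM in vehicle-PDAC (1.62 ± 0.35, adjusted p = 0.0360, and 0.230 without sample 2).

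Mrc1 was 790.2 and 602 CPM in BIBO3304-PDAC and did not pass against vehicle-PDAC (-1.22 ± 0.32, adjusted p = 0.121; -0.78 ± 0.35 and 0.485 without sample 2). No member of the resident list passed in this comparison with either set of samples, but Mrc1 passed without the cells that held a transcript of an alveolar macrophage gene (-1.51, adjusted p = 0.0222). Of the 14 genes named for this comparison that were called, 10 lost their call without the cells with a dendritic cell transcript. The count of calls was 0 without sample 2 of vehicle-PDAC, 110 without sample 1 of it, 5 without sample 1 of BIBO3304-PDAC and 0 without sample 2 of BIBO3304-PDAC. Both drug groups share the vehicle-PDAC samples, so their falls are not independent of each other.

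Vehicle-PDAC against vehicle measured the response to seeding without a drug. No gene passed with edgeR, or 0% of those tested, and none with DESeq2, while 524 genes had an unadjusted p under 0.05. Without sample 2 of vehicle-PDAC, 27 genes passed, 14 higher and 13 lower. These calls set 1 seeded sample against 3, with the spread taken from the other groups, and have no replicate check. Among them were Marchf3, a membrane-bound ubiquitin ligase (2.49 ± 0.36, adjusted p = 0.00311), Ece1, which activates endothelin (2.32 ± 0.40, adjusted p = 0.00745), Mmp14 (2.28 ± 0.41, adjusted p = 0.0109), the arginine-making enzyme Ass1 (1.998 ± 0.44, adjusted p = 0.0352) and the cytokine Il6 (-2.57 ± 0.51, adjusted p = 0.0206). Marchf3, Ece1, Mmp14 and Ass1 are named here after their values were seen. Marchf3 stood at 597 and 107 CPM in vehicle-PDAC and at 122, 109 and 90.4 CPM in vehicle, so that sample 1 lay far above and sample 2 within the vehicle range. Ece1 showed the same pattern, with 423 and 83.4 CPM in vehicle-PDAC and 103, 45.4 and 104 CPM in vehicle. C1qa stood at 149 and 355 CPM in vehicle-PDAC and at 425, 363 and 311 CPM in vehicle, and passed without sample 2 (-1.29 ± 0.29, adjusted p = 0.0465) but not with it (adjusted p = 0.651).

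Seeding was next compared within each drug, which uses no vehicle-PDAC sample. In 6-OHDA-PDAC relative to 6-OHDA, 151 genes were higher, or 2.34%, and 443 lower, or 6.88%. In BIBO3304-PDAC relative to BIBO3304, 439 were higher, or 6.81%, and 719 lower, or 11.2%. These comparisons share no sample. They had 407 called genes in common, which is 68.5% of the 594 in the first and 35.1% of the 1158 in the second, while 9.22% and 18.0% of all tested genes were called in them. All of the shared genes moved the same way, 82 higher and 325 lower. Leaving out sample 2 of 6-OHDA-PDAC left 115 calls in the first comparison, leaving out sample 1 of it 194 and leaving out sample 3 of 6-OHDA 374. Leaving out sample 2 of BIBO3304-PDAC left 224 calls in the second, leaving out sample 2 of BIBO3304 677 and leaving out sample 1 of BIBO3304-PDAC 744.

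**Figure D3:**
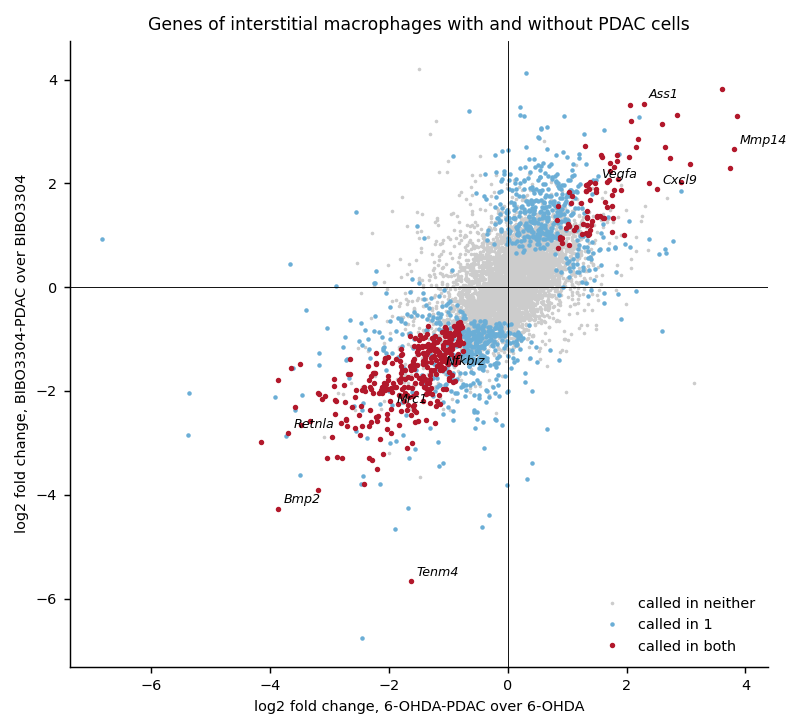
Log2 fold change of 6-OHDA-PDAC over 6-OHDA (horizontal axis) and of BIBO3304-PDAC over BIBO3304 (vertical axis), one point per gene tested, in red for the 407 genes called in both comparisons, blue for those called in 1 and grey for the rest. All of these lie in the quadrants where both values have the same sign, 82 above and 325 below 0.

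Resident macrophage genes fell in both drugs. Of 15 tested resident genes, 10 fell in 6-OHDA-PDAC and 8 in BIBO3304-PDAC, and none rose. Among all tested genes 6.88% fell and 2.34% rose in 6-OHDA-PDAC, and 11.2% fell and 6.81% rose in BIBO3304-PDAC. These shares are the background for this and the following list counts. Mrc1 stood at 419 and 313 CPM in 6-OHDA-PDAC and at 1771, 1077 and 1424 CPM in 6-OHDA (-1.96 ± 0.31, adjusted p = 0.000470). It stood at 790.2 and 602 CPM in BIBO3304-PDAC and at 2751, 4891 and 2942 CPM in BIBO3304 (-2.34 ± 0.32, adjusted p = 7.73e-05). Neither pair of groups overlapped. Retnla stood at 210.4, 254 and 497 CPM in 6-OHDA and at 299, 235 and 266 CPM in BIBO3304, and its log2 fold change after seeding was -3.69 ± 0.54 in 6-OHDA-PDAC and -2.81 ± 0.53 in BIBO3304-PDAC (adjusted p = 0.000213 and 0.00116). The seeded samples, listed earlier, lay below all of these. Stab1, a scavenger receptor that takes up modified lipoproteins, stood at 25.7 and 30.6 CPM in 6-OHDA-PDAC against 96.7, 68.3 and 85.9 CPM in 6-OHDA, and at 91.1 and 43.0 CPM in BIBO3304-PDAC against 278, 209 and 149.6 CPM in BIBO3304 (adjusted p = 0.00880 and 0.00173). Selenop had log2 fold changes of -1.79 ± 0.39 and -1.65 ± 0.38 (adjusted p = 0.00613 and 0.00457).

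Genes common to macrophages also moved down. Of 15 genes of the macrophage core, 5 fell and 1 rose in 6-OHDA-PDAC, and 10 fell in BIBO3304-PDAC. Adgre1, which encodes the F4/80 antigen, stood at 64.0 and 42.9 CPM in 6-OHDA-PDAC and at 122, 290.2 and 217 CPM in 6-OHDA (-1.98 ± 0.33, adjusted p = 0.000678), and at 63.0 and 51.6 CPM in BIBO3304-PDAC and 243, 298 and 243 CPM in BIBO3304 (-2.20 ± 0.34, adjusted p = 0.000231). Apoe, the lipid carrier, stood at 194 and 223 CPM in 6-OHDA-PDAC and at 586, 753 and 823 CPM in 6-OHDA (-1.79 ± 0.31, adjusted p = 0.00116). It stood at 298 and 172 CPM in BIBO3304-PDAC and at 1124, 1352 and 1161 CPM in BIBO3304 (-2.38 ± 0.33, adjusted p = 7.73e-05). Fcgr1, the high-affinity receptor for IgG, was the core gene that rose in 6-OHDA-PDAC, at 22.7 and 32.0 CPM against 5.69, 3.41 and 4.52 CPM in 6-OHDA (adjusted p = 0.0166).

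Among 11 tested complement genes, 5 fell and 1, the receptor subunit Itgax, rose in 6-OHDA-PDAC, and 6 fell and 1, Cfb, rose in BIBO3304-PDAC. C1qb fell in both (-0.93 ± 0.26, adjusted p = 0.0259; -1.70 ± 0.27, adjusted p = 0.000255). C1qa stood at 179 and 169.6 CPM in 6-OHDA-PDAC and at 279, 304 and 267 CPM in 6-OHDA and did not pass (-0.70 ± 0.28, adjusted p = 0.127), while in BIBO3304-PDAC it stood at 151 and 204 CPM, against 384, 356 and 388 CPM in BIBO3304 (-1.07 ± 0.29, adjusted p = 0.0132). The anaphylatoxin receptors C3ar1 and C5ar1 fell in both drugs. The log2 fold changes in 6-OHDA-PDAC and BIBO3304-PDAC were -1.51 ± 0.37 and -2.58 ± 0.41 for C3ar1 (adjusted p = 0.0134 and 0.000275) and -1.28 ± 0.36 and -2.05 ± 0.36 for C5ar1 (adjusted p = 0.0295 and 0.000687). Cfb, which drives the alternative complement pathway, rose, with 38.1 and 32.5 CPM in BIBO3304-PDAC and 0, 5.28 and 4.67 CPM in BIBO3304, from 0, 2 and 2 transcripts (3.31 ± 0.65, adjusted p = 0.00145).

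Of 14 tested tissue growth factors, 3 fell and 1, Vegfa, rose in 6-OHDA-PDAC, and 6 fell and 1, Vegfa, rose in BIBO3304-PDAC. Bmp2, a growth factor of the TGF-beta family that muscularis macrophages of the gut pass to neurons, had the largest fall among the tissue growth factors listed. It stood at 5.04 and 2.04 CPM in 6-OHDA-PDAC and at 56.9, 46.1 and 72.3 CPM in 6-OHDA (-3.86 ± 0.46, adjusted p = 5.78e-05). It stood at 4.97 and 4.78 CPM in BIBO3304-PDAC and at 106, 84.5 and 100.5 CPM in BIBO3304 (-4.27 ± 0.48, adjusted p = 1.62e-05). Il10, an anti-inflammatory cytokine, and Il6 fell in both, with adjusted p = 0.00846 and 0.000631 in 6-OHDA-PDAC and 0.00614 and 0.00894 in BIBO3304-PDAC. Il6 stood at 10.6 and 8.17 CPM in 6-OHDA-PDAC and at 34.1, 66.6 and 72.3 CPM in 6-OHDA. Of 14 immediate early genes, which cells switch on within minutes of a stimulus, dissociation included, 5 fell in 6-OHDA-PDAC and 9 in BIBO3304-PDAC. Atf3 stood at 191 and 179.8 CPM in 6-OHDA-PDAC and at 563, 483 and 307 CPM in 6-OHDA (adjusted p = 0.00153), and at 224 and 238 CPM in BIBO3304-PDAC and 574, 705 and 608 CPM in BIBO3304 (adjusted p = 0.000379). The part of dissociation in this was not tested.

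Mmp14, Marchf3, Ass1, Clec7a, Axl and Spp1 were among the genes that rose after seeding in both drugs. Mmp14 stood at 106 and 121 CPM in 6-OHDA-PDAC and at 8.53, 5.12 and 13.6 CPM in 6-OHDA (3.81 ± 0.45, adjusted p = 5.78e-05). The 6-OHDA levels came from 3 transcripts in each sample, so the size of this fold change rests on few transcripts. Mmp14 stood at 123 and 115 CPM in BIBO3304-PDAC and at 23.8, 18.5 and 14.02 CPM in BIBO3304 (2.66 ± 0.38, adjusted p = 0.000138). Marchf3 stood at 744 and 891 CPM in 6-OHDA-PDAC and at 168, 81.9 and 31.6 CPM in 6-OHDA (3.07 ± 0.48, adjusted p = 0.000388), and its log2 fold change in BIBO3304-PDAC was 2.37 ± 0.47 (adjusted p = 0.00156). Ass1 stood at 114 and 132 CPM in 6-OHDA-PDAC and at 42.6, 20.5 and 9.04 CPM in 6-OHDA, and at 113 and 107 CPM in BIBO3304-PDAC and 15.9, 5.28 and 7.01 CPM in BIBO3304 (adjusted p = 0.00869 and 0.000834). Sample 1 of vehicle-PDAC lay just below the drug-treated seeded samples for Ass1, and sample 2 among the unseeded ones, with 101 and 14.6 CPM. Clec7a, the beta-glucan receptor dectin-1, stood at 559 and 503 CPM in 6-OHDA-PDAC and at 136, 176 and 154 CPM in 6-OHDA (1.76 ± 0.21, adjusted p = 5.78e-05). It stood at 436 and 451 CPM in BIBO3304-PDAC and at 167, 135 and 147 CPM in BIBO3304 (1.57 ± 0.22, adjusted p = 7.73e-05). Axl, a receptor for dying cells, rose by 1.37 ± 0.27 and 1.02 ± 0.27 (adjusted p = 0.00293 and 0.0126). Osteopontin (Spp1), a mark of lipid-associated and tumor macrophages, stood at 18.1 and 32.7 CPM in 6-OHDA-PDAC and at 0, 3.41 and 0 CPM in 6-OHDA (adjusted p = 0.00227), and at 38.1 and 53.5 CPM in BIBO3304-PDAC and 13.2, 5.28 and 9.35 CPM in BIBO3304 (2.30 ± 0.49, adjusted p = 0.00307).

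**Figure D4:**
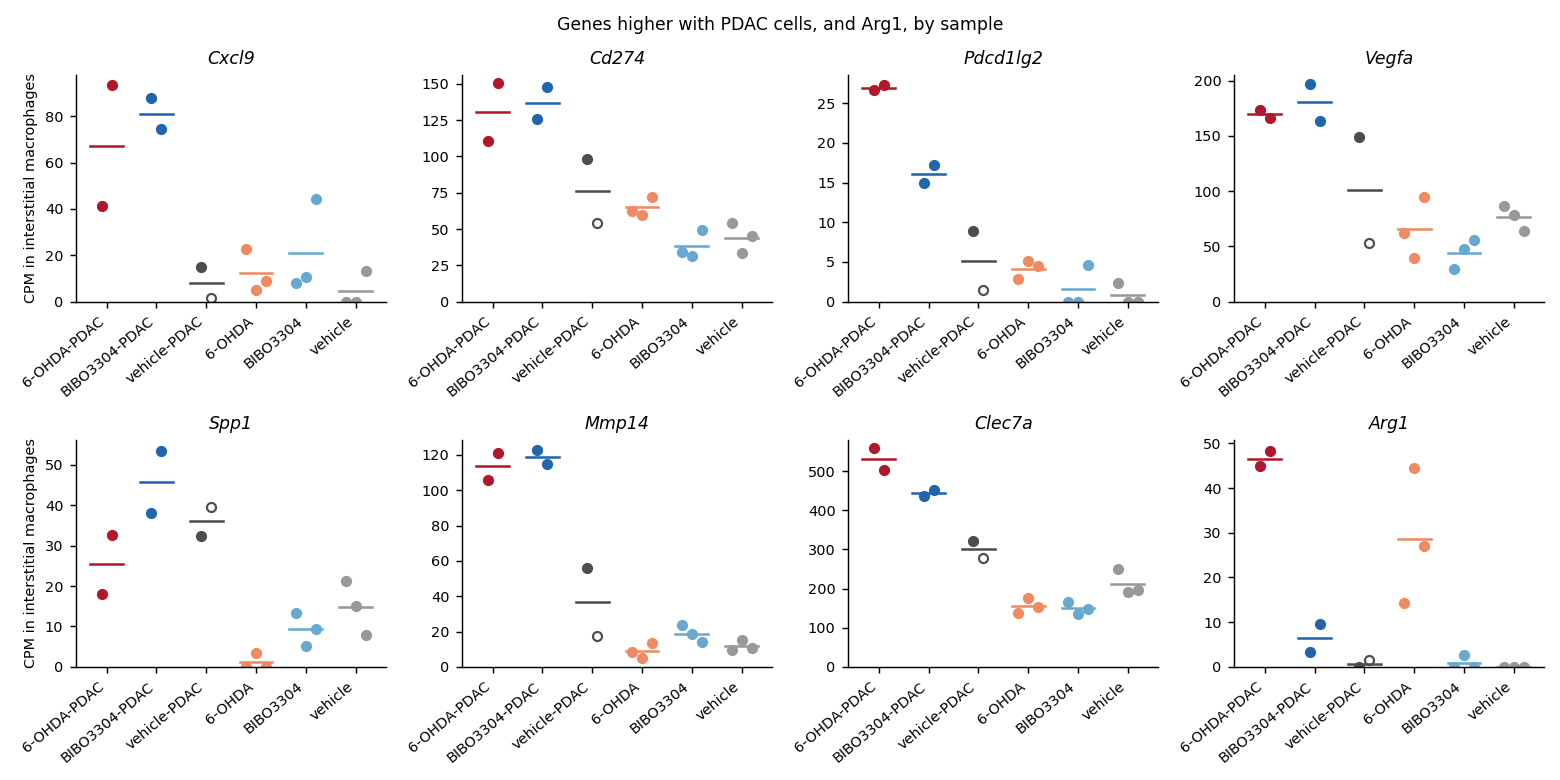
Levels of Cxcl9, Cd274, Pdcd1lg2, Vegfa, Spp1, Mmp14, Clec7a and Arg1 in CPM on linear axes, one point per sample by group, with a horizontal line for the group mean and an open circle for sample 2 of vehicle-PDAC. Mmp14 lies between 106 and 123 CPM in the 4 seeded drug-treated samples, above every other sample.

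Immune checkpoint ligands and interferon gamma targets rose in part. Of 12 tested checkpoint genes, 3 rose in 6-OHDA-PDAC, and 4 rose and 1 fell in BIBO3304-PDAC. Cd274, which encodes PD-L1, stood at 110.3 and 151 CPM in 6-OHDA-PDAC and at 62.5, 59.8 and 72.3 CPM in 6-OHDA (1.02 ± 0.28, adjusted p = 0.0251). It stood at 126 and 148 CPM in BIBO3304-PDAC and at 34.4, 31.7 and 49.1 CPM in BIBO3304 (1.83 ± 0.30, adjusted p = 0.000380). Pdcd1lg2, which encodes PD-L2, stood at 26.7 and 27.2 CPM in 6-OHDA-PDAC and at 2.84, 5.12 and 4.52 CPM in 6-OHDA (adjusted p = 0.0225), and at 14.9 and 17.2 CPM in BIBO3304-PDAC and 0, 0 and 4.67 CPM in BIBO3304 (adjusted p = 0.0213). Havcr2, which encodes TIM-3, rose by 1.34 ± 0.37 and 1.19 ± 0.37 (adjusted p = 0.0265 and 0.0309). Of 11 tested interferon gamma targets, 3 rose in 6-OHDA-PDAC, with a list median of 0.81, and 6 rose and 1 fell in BIBO3304-PDAC, with a median of 1.56. The medians over all genes were 0.01 and 0.03. Cxcl9, a chemokine that draws T cells, stood at 41.3 and 93.3 CPM in 6-OHDA-PDAC against 22.7, 5.12 and 9.04 CPM in 6-OHDA, and at 87.8 and 74.5 CPM in BIBO3304-PDAC against 7.94, 10.6 and 44.4 CPM in BIBO3304 (adjusted p = 0.0259 and 0.0394). The transcription factor Irf8 rose by 1.64 ± 0.32 and 1.64 ± 0.31 (adjusted p = 0.00237 and 0.00119).

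The counts for genes of antigen presentation differed between the drugs, a difference that was not tested. Of 12 genes of the MHC class II form, 2 rose and none fell in 6-OHDA-PDAC, namely Ciita and Itgax, and none rose and 4 fell in BIBO3304-PDAC, namely H2-Aa, H2-Eb1, Cd74 and Cd72. Ciita, the master regulator of MHC class II, rose in 6-OHDA-PDAC (1.44 ± 0.34, adjusted p = 0.00879), whereas H2-Aa stood at 613 and 853 CPM in 6-OHDA-PDAC and at 847, 504 and 606 CPM in 6-OHDA (0.17 ± 0.25, adjusted p = 0.743). In BIBO3304-PDAC H2-Aa stood at 701 and 594 CPM, against 1146, 1307 and 1138 CPM in BIBO3304 (-0.89 ± 0.26, adjusted p = 0.0207). Vegfa, which drives vessel growth, rose in both drugs (1.48 ± 0.36 and 2.01 ± 0.37, adjusted p = 0.0121 and 0.00101). Of 10 tested classical monocyte genes, 1 rose in 6-OHDA-PDAC, namely Plac8, and 4 in BIBO3304-PDAC, namely Plac8, Vcan, F10 and S100a4, and their part in the other results was not tested. The summed level of the 12 monocyte genes was 2322 and 2315 CPM in 6-OHDA-PDAC and 1308, 4189 and 3581 CPM in 6-OHDA, and 1203 and 1626 CPM in BIBO3304-PDAC and 743, 974 and 1149.7 CPM in BIBO3304. Ly6c2, which defines classical monocytes, was at most 10.5 CPM in any sample.

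Nfkbiz, Ccl2, Ccl7 and Igf1 were among the genes that fell after seeding in both drugs. Of 13 tested inflammatory cytokine and NF-kB feedback genes, 6 fell in 6-OHDA-PDAC and none rose, and 5 fell and 1, Cxcl10, rose in BIBO3304-PDAC. Nfkbiz, a feedback regulator of NF-kB, stood at 292 and 299 CPM in 6-OHDA-PDAC and at 753, 549.7 and 642 CPM in 6-OHDA (-1.13 ± 0.26, adjusted p = 0.00827), and at 359 and 308 CPM in BIBO3304-PDAC and 1146, 1196 and 685 CPM in BIBO3304 (-1.60 ± 0.27, adjusted p = 0.000393). The monocyte attractants Ccl2 and Ccl7 fell in both drugs, with adjusted p = 0.0134 and 0.0166 in 6-OHDA-PDAC and 0.0321 and 0.00353 in BIBO3304-PDAC. Igf1, a trophic factor, stood at 9.07 and 12.3 CPM in 6-OHDA-PDAC and at 102, 27.3 and 54.3 CPM in 6-OHDA (-2.46 ± 0.65, adjusted p = 0.0201). It stood at 29.8 and 53.5 CPM in BIBO3304-PDAC and at 439, 71.3 and 129 CPM in BIBO3304 (-2.30 ± 0.55, adjusted p = 0.00629). Of 14 tested genes of dead cell uptake, 5 fell and 1 rose in 6-OHDA-PDAC, and 6 fell and 1 rose in BIBO3304-PDAC, Axl being the riser in both. Of 14 tested cAMP signalling genes, which lie downstream of adrenergic receptors, 4 fell in 6-OHDA-PDAC and 3 in BIBO3304-PDAC. Pde4d and Akap13 were among them in both. Of all tested genes, 6.88% fell in 6-OHDA-PDAC and 11.2% in BIBO3304-PDAC, and the list as a whole was not tested. The metallothioneins Mt1 and Mt2 fell in 6-OHDA-PDAC (-1.79 ± 0.34, adjusted p = 0.00209, and -2.23 ± 0.35, adjusted p = 0.000404).

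Detection in single cells was compared across samples after thinning to 1000 transcripts each, which kept 2906 of the 3295 cells. It kept 473 and 310 cells in 6-OHDA-PDAC, 186 and 386 in BIBO3304-PDAC, 240 and 261 in vehicle-PDAC, 109, 176 and 68 in 6-OHDA, 89, 53 and 121 in BIBO3304 and 137, 164 and 133 in vehicle. A transcript of any of 9 resident genes was found in 25.8 and 27.1 percent of interstitial macrophages in 6-OHDA-PDAC, 34.4 and 37.3 percent in BIBO3304-PDAC, 50 and 69.3 percent in vehicle-PDAC, 59.6, 57.4 and 55.9 percent in 6-OHDA, 73.0, 83.0 and 68.6 percent in BIBO3304 and 63.5, 68.3 and 67.7 percent in vehicle. Without thinning, the values were 45.9 and 49.6 percent in 6-OHDA-PDAC, 53.7 and 53.5 percent in BIBO3304-PDAC, 70.7 and 87.3 percent in vehicle-PDAC, 68.5, 77.6 and 74.4 percent in 6-OHDA, 89.1, 85.2 and 85.9 percent in BIBO3304 and 76.9, 81.4 and 76.2 percent in vehicle. After thinning, the seeded samples other than sample 2 of vehicle-PDAC lay at or below 50 percent, and all unseeded samples lay above it. In T cells, which should lack these genes, the thinned share was 9.38%, with a median depth of 1614.5 transcripts. The set was not particular to interstitial macrophages. Its thinned share was 80.7% in alveolar macrophages, 27.7% in monocytes and 13.4% in dendritic cells, against 48.2% in interstitial macrophages.

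A C1q transcript was found in 19.0 and 22.9 percent of thinned cells in 6-OHDA-PDAC, 15.1 and 23.8 percent in BIBO3304-PDAC, 19.6 and 25.3 percent in vehicle-PDAC, 33.9, 38.1 and 45.6 percent in 6-OHDA, 50.6, 43.4 and 43.8 percent in BIBO3304 and 38.7, 29.3 and 33.8 percent in vehicle. All 6 seeded samples lay below all 9 unseeded ones. Without thinning, the values were 39.5 and 40.5 percent in 6-OHDA-PDAC, 29.9 and 33.04 percent in BIBO3304-PDAC, 33.8 and 46.4 percent in vehicle-PDAC, 52.4, 54.1 and 60.3 percent in 6-OHDA, 53.5, 68.9 and 64.8 percent in BIBO3304 and 44.5, 39.9 and 40.0 percent in vehicle, and these groups overlapped. MHC class II transcripts were found in 91.5 and 96.5 percent of thinned cells in 6-OHDA-PDAC, against 94.2 and 80.8 percent in vehicle-PDAC, and without thinning in 96.3 and 97.9 percent in 6-OHDA-PDAC and 95.1 and 90.7 percent in vehicle-PDAC. Classical monocyte transcripts were found in 53.7 and 58.4 percent of thinned cells in 6-OHDA-PDAC, 30.1 and 40.2 percent in BIBO3304-PDAC, 35.8 and 31.8 percent in vehicle-PDAC, 40.4, 61.4 and 48.5 percent in 6-OHDA, 28.1, 17.0 and 19.0 percent in BIBO3304 and 32.1, 34.8 and 30.8 percent in vehicle. Without thinning they were found in 73.3 and 77.1 percent in 6-OHDA-PDAC, 47.7 and 56.2 percent in BIBO3304-PDAC, 58.9 and 52.2 percent in vehicle-PDAC, 51.6, 69.9 and 53.8 percent in 6-OHDA, 41.6, 31.1 and 40.6 percent in BIBO3304 and 43.4, 43.6 and 38.1 percent in vehicle. Both before and after thinning, 6-OHDA-PDAC lay above vehicle-PDAC and 6-OHDA above vehicle without overlap. The classical monocyte set includes Fn1, and its shares without Fn1 were not computed. The thinned share of this set was 10.9% in T cells, 21.3% in alveolar macrophages, 32.6% in annotated monocytes and 41.3% in interstitial macrophages. Over all samples, resident transcripts were found in 66.3% of 796 cells with C1q and in 41.3% of 2110 cells without it.

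**Figure D5:**
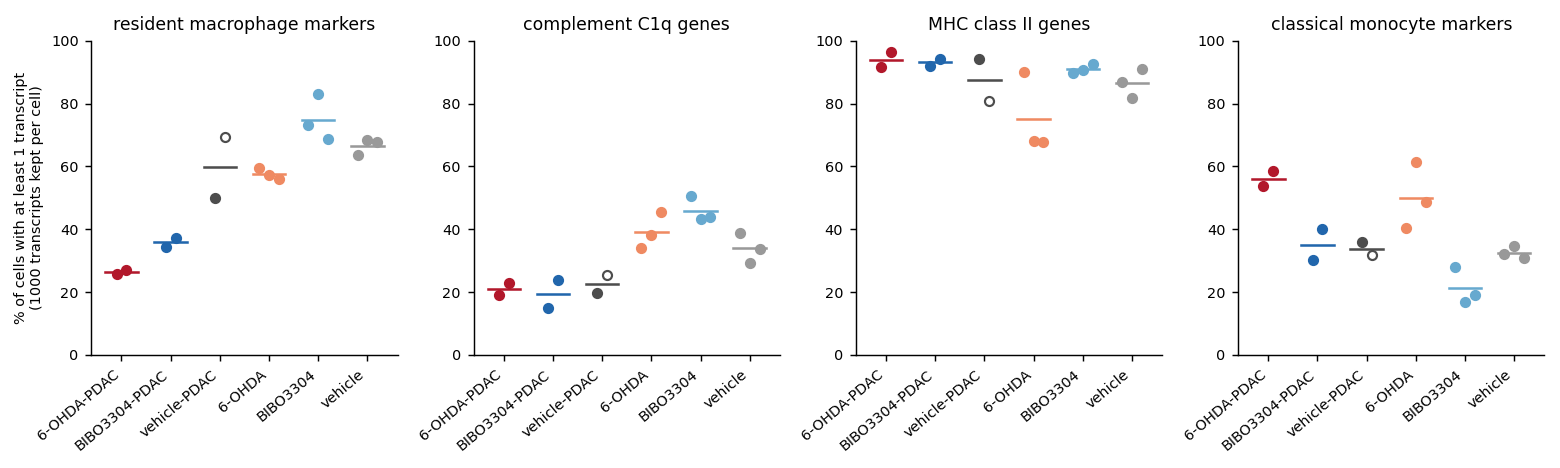
Percent of interstitial macrophages with at least 1 transcript of resident, C1q, MHC class II or classical monocyte genes after thinning each cell to 1000 transcripts, one point per sample by group, with a horizontal line for the group mean and an open circle for sample 2 of vehicle-PDAC. Resident genes lie at 25.8 and 27.1 percent in 6-OHDA-PDAC, below every other sample.

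In unseeded lungs the drugs left few calls. In 6-OHDA relative to vehicle 3 genes rose, or 0.0466%, and none fell, namely Arg1, the phosphodiesterase Pde3b, which breaks down cAMP, and the adhesion receptor Adgre4. All 3 lost their call without the cells with a dendritic cell transcript (adjusted p = 0.0519 each). Pde3b stood at 446, 364 and 534 CPM in 6-OHDA and at 146, 166 and 175 CPM in vehicle (1.45 ± 0.25, adjusted p = 0.0298). Adgre4, which also belongs to the nonclassical monocyte list and was the only one of its 8 tested genes to pass, stood at 117, 159 and 76.9 CPM in 6-OHDA and at 47.0, 24.2 and 29.2 CPM in vehicle (1.84 ± 0.33, adjusted p = 0.0298). The monocyte sets, taken whole, were found in more cells of 6-OHDA without overlap. The classical set is given above, and the nonclassical one was found in 12.8, 18.2 and 11.8 percent of thinned cells in 6-OHDA and 8.03, 4.88 and 9.02 percent in vehicle. Ccr2 alone, of the classical set, overlapped, with 11.9, 13.1 and 5.88 percent in 6-OHDA and 15.3, 10.4 and 11.3 percent in vehicle. Fn1 also belongs to the classical set, and shares without Fn1 were not computed. The classical shares therefore do not measure monocyte genes apart from Fn1. The part of monocyte markers in these results was not tested. The nonclassical share in T cells was 11.5%. In BIBO3304 relative to vehicle 10 genes passed, or 0.155%, 7 higher and 3 lower. The palmitoyltransferase Zdhhc14 stood at 601, 1513 and 689 CPM in BIBO3304 and at 169, 163 and 284 CPM in vehicle (2.18 ± 0.36, adjusted p = 0.0305). The integrin Itga9 stood at 148, 256 and 179.9 CPM in BIBO3304 and at 47.0, 60.5 and 50.5 CPM in vehicle (1.89 ± 0.34, adjusted p = 0.0305). Tanc2, a scaffold protein, stood at 378, 657 and 390.2 CPM in BIBO3304 and at 181, 142 and 189 CPM in vehicle (1.47 ± 0.29, adjusted p = 0.0305). Olr1, a receptor for oxidized lipoprotein, stood at 66.1, 52.8 and 63.1 CPM in BIBO3304 and at 322, 436 and 205 CPM in vehicle (-2.39 ± 0.45, adjusted p = 0.0305). Olr1 is also a gene of the alveolar macrophage list, whose summed level was 344, 172 and 393 CPM in BIBO3304 and 852, 1081 and 545 CPM in vehicle, and its part in this was not tested. Fgr, a Src-family kinase, stood at 138, 108 and 129 CPM in BIBO3304 and at 289, 206 and 269 CPM in vehicle (-1.03 ± 0.21, adjusted p = 0.0475). The groups of these 5 genes did not overlap, but the genes were named for passing the test, so this adds no support. For 6-OHDA, 13 genes were called without its sample 1, 1 without its sample 3 and 0 without sample 1 or sample 3 of vehicle. For BIBO3304, 1 was called without sample 1 of vehicle and 0 without sample 2 of BIBO3304 or sample 2 or 3 of vehicle.

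Set directly against each other, 6-OHDA and BIBO3304 differed in 32 genes that were higher in 6-OHDA, or 0.497%, and 45 that were lower, or 0.698%. Mrc1 stood at 1771, 1077 and 1424 CPM in 6-OHDA and at 2751, 4891 and 2942 CPM in BIBO3304 (-1.31 ± 0.27, adjusted p = 0.0186), with the vehicle samples between them at 1817, 2016 and 2194 CPM. Pdgfc, a growth factor for mesenchymal cells, stood at 25.6, 6.83 and 36.2 CPM in 6-OHDA and at 114, 103 and 145 CPM in BIBO3304 (-2.64 ± 0.44, adjusted p = 0.00617). Vcam1, an adhesion molecule, stood at 25.6, 6.83 and 13.6 CPM in 6-OHDA and at 23.8, 166 and 100.5 CPM in BIBO3304 (-2.75 ± 0.58, adjusted p = 0.0208), and sample 1 of 6-OHDA lay above sample 1 of BIBO3304. Fibronectin (Fn1) stood at 799, 3404 and 2830.4 CPM in 6-OHDA and at 355, 763 and 659 CPM in BIBO3304 (1.99 ± 0.40, adjusted p = 0.0186), and Vcan, a matrix proteoglycan that marks classical monocytes, at 39.8, 22.2 and 118 CPM in 6-OHDA and at 5.29, 0 and 0 CPM in BIBO3304 (adjusted p = 0.0190). The monocyte gene sums given above were higher in samples 2 and 3 of 6-OHDA than in any other sample. Fn1 is itself counted in them and made up most of these 2 sums, with 3404 of 4189 CPM and 2830.4 of 3581 CPM. They therefore do not measure monocyte genes apart from Fn1, and the part of monocyte genes in this was not tested. The count of calls was 153 without sample 1 of 6-OHDA, 6 without its sample 2 and 18 without its sample 3, and it was 28 without sample 1 of BIBO3304 and 9 without its sample 2.

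The difference between the drug effect in seeded and in unseeded lungs was tested as an interaction. For 6-OHDA 5 genes passed, or 0.0776%, all lower, namely Blnk, Nav2, Ctnnd2, Casp4 and Mctp1. Casp4, which senses bacterial lipopolysaccharide in the cytosol, stood at 62.5 and 54.5 CPM in 6-OHDA-PDAC, 158 and 265 CPM in vehicle-PDAC, 347, 289 and 303 CPM in 6-OHDA and 324, 336 and 322 CPM in vehicle (-1.77 ± 0.33, adjusted p = 0.0340). None passed without sample 2 of vehicle-PDAC, and 61 genes passed without sample 1 of it. The count was 0 without either sample of 6-OHDA-PDAC, without sample 1 or 3 of 6-OHDA and without sample 1 or 2 of vehicle, 2 without sample 3 of vehicle and 18 without sample 2 of 6-OHDA. For BIBO3304 68 genes passed, or 1.06%. Mrc1 was one of them (-2.03 ± 0.42, adjusted p = 0.0217), as were Apoe (-2.12 ± 0.43, adjusted p = 0.0199), Bmp2 (-3.48 ± 0.65, adjusted p = 0.0108) and Adgre1 (-2.18 ± 0.47, adjusted p = 0.0282). Among those with positive values were Cfb (4.24 ± 0.90, adjusted p = 0.0279), the calcium-binding S100a6 (2.76 ± 0.56, adjusted p = 0.0206) and the lymph node homing receptor Ccr7 (3.47 ± 0.64, adjusted p = 0.0108). Without sample 2 of vehicle-PDAC the adjusted p was 0.0481 for Mrc1, 0.0564 for Apoe, 0.0242 for Bmp2, 0.0645 for Adgre1, 0.0310 for Cfb, 0.0242 for S100a6 and 0.0173 for Ccr7. The BIBO3304 interaction had 141 calls without sample 2 of vehicle-PDAC and 124 without sample 1, 0 without sample 2 of BIBO3304-PDAC and 39 without its sample 1. It was 39, 18 and 113 without samples 1, 2 and 3 of BIBO3304 and 23, 24 and 37 without samples 1, 2 and 3 of vehicle.

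Whether interstitial macrophages responded differently from their nearest relatives was tested in joint fits with monocytes and with alveolar macrophages of the same samples. Against alveolar macrophages, the response to 6-OHDA in seeded lungs differed in 127 of 12217 genes, or 1.04%, 117 of them with the lower value in interstitial macrophages. Mrc1 was among these: its difference in response was -2.45 ± 0.28 (adjusted p = 3.66e-07), with a log2 fold change of 0.32 in alveolar macrophages. Slco2b1 (-3.89 ± 0.47, adjusted p = 7.39e-07), F13a1 (-2.26 ± 0.54, adjusted p = 0.0226), Pros1, a bridge between dying cells and their receptors (-1.81 ± 0.32, adjusted p = 0.000742), and Pdgfc (-2.21 ± 0.40, adjusted p = 0.00115) also differed. With 1 sample left out at a time, F13a1, Pros1 and Pdgfc lost their call (highest adjusted p = 0.316, 0.0547 and 0.0608), while Mrc1 and Slco2b1 kept theirs (2.99e-06 each). Without sample 2 of vehicle-PDAC the differences were -1.85 for Mrc1, -3.49 for Slco2b1, -2.84 for F13a1, -1.49 for Pros1 and -1.58 for Pdgfc (adjusted p = 8.65e-07, 5.26e-07, 5.38e-06, 0.00890 and 0.0608). Against monocytes 22 of 7395 genes differed, or 0.297%, all lower in interstitial macrophages, among them Mt1 (-2.71 ± 0.59, adjusted p = 0.0272), which did not pass without sample 2 of vehicle-PDAC (-2.05, adjusted p = 0.263). Mrc1, Slco2b1, F13a1, Pros1 and Pdgfc did not pass against monocytes. Their differences were -1.31, -1.11, -1.05, -1.49 and -3.45 (adjusted p = 0.230, 0.901, 0.452, 0.180 and 0.358). In monocytes alone the log2 fold change was -0.91 for Mrc1, -1.01 for F13a1 and 0.09 for Pros1, and none passed. The responses of these genes are therefore not shown to be particular to interstitial macrophages. For BIBO3304 in seeded lungs 27 genes, or 0.221%, differed from alveolar macrophages and 3, or 0.0406%, from monocytes. Retnla was among those that differed from alveolar macrophages (-3.15 ± 0.54, adjusted p = 0.00198, and -3.87 and 7.44e-07 without sample 2). The Retnla difference from monocytes was -4.36 ± 1.28 and did not pass (adjusted p = 0.342). In unseeded lungs the response to BIBO3304 differed from that of monocytes in 41 genes, or 0.554%, and from that of alveolar macrophages in 10, or 0.0819%. The response to 6-OHDA there differed from that of monocytes in 3 genes, or 0.0406%, and from that of alveolar macrophages in 14, or 0.115%. Pde3b differed from both (1.404 ± 0.26, adjusted p = 0.0318, and 1.45 ± 0.23, adjusted p = 0.00180), but each call was lost with 1 sample left out (highest adjusted p = 0.284 and 0.0820). Without sample 2 of vehicle-PDAC, the 6-OHDA-PDAC response differed from that of alveolar macrophages in 88 genes and from that of monocytes in 9, and the BIBO3304-PDAC response in 113 and 3. The count of 127 became 367 without sample 1 of vehicle-PDAC, and 74 and 65 without samples 1 and 2 of 6-OHDA-PDAC, and the count of 27 became 158 without sample 1 of vehicle-PDAC, and 62 and 13 without samples 1 and 2 of BIBO3304-PDAC. The count of 22 became 1 and 5 without samples 1 and 2 of 6-OHDA-PDAC.

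Receptors for the transmitters of sympathetic nerves were scarcely detected in interstitial macrophages. Npy had no transcript in any of the 15 samples, where a count of 0 allows up to 1.51 to 13.6 CPM, and Npy1r, the target of BIBO3304, had 1 transcript in all, in sample 1 of 6-OHDA-PDAC. Of 15 adrenergic and neuropeptide Y genes listed, Dpp4, a peptidase that trims neuropeptide Y, was the only member that passed the filter on low counts. It fell in 6-OHDA-PDAC, at 18.6 and 17.0 CPM, relative to 6-OHDA, at 79.6, 44.4 and 27.1 CPM (-1.52 ± 0.43, adjusted p = 0.0290). The beta-1 adrenergic receptor Adrb1, which reached at most 12.1 CPM, was too low to be tested, and at this depth no difference between groups was detectable.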

How the data were processed

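Lung cells were profiled by split-pool single-cell RNA-seq. The authors deposited a matrix of raw transcript counts per gene and cell and a cell table with each cell's sample, treatment, seeding state and annotated type. Seurat 5.3.0 and build mm39 are named, per the submitters' processing notes, while no aligner, cell filter or annotation method is given there. Every deposited cell had at least 301 genes and at most 9.99 percent mitochondrial transcripts, a percentage the authors computed per cell. No doublet caller was run here. How strand and overlapping genes were counted is not stated, so reads of antisense partners may not be told apart.

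Counts of the cells annotated as interstitial macrophages were summed per sample (Python 3.11.15, numpy 2.4.6, scipy 1.17.1, pandas 2.3.3). Samples needed at least 20 such cells, and all 15 had them. Genes were filtered with filterByExpr, scaled by TMM and tested with the quasi-likelihood test of edgeR 4.0.16 (R 4.3.3) in 1 fit over the 6 groups, with Benjamini-Hochberg adjustment over 6443 genes and a threshold of 0.05. Cell numbers per type were tested likewise, with the total as offset, over 22 types, beside exact permutation tests, also in R. Differences from monocytes and alveolar macrophages came from joint fits with the sample as a block. Alternatives included DESeq2 1.42.0, other scaling, no filter and leaving out each sample. Tested on simulated data drawn from the real means, the test recovered 20.9% of 2-fold and 76.3% of 4-fold changes for 6-OHDA against vehicle (5885 genes), and 29.5% and 94.7% for 6-OHDA-PDAC against vehicle-PDAC (5528 genes). Of the genes called in these simulations, 4.26% and 10.9% were unchanged genes.

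In each comparison, named genes had to pass the threshold and average 20 CPM or more, and the 10 that rose most and 10 that fell most were taken, predicted, ribosomal, mitochondrial and immune receptor genes aside. Where fewer than 8 passed, the 8 with the smallest p-values were taken, and up to 6 called members of each gene list were added. Exceptions are stated beside them. The members and lists were chosen with earlier results of these data known. Some genes stand in 2 lists. Some items are not reported here.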

Additional observations from a re-analysis of the deposited data

Results flagged for a closer look

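The effects of a drug in seeded and in unseeded lungs differed for several genes, by the interaction test of edgeR with Benjamini-Hochberg adjustment. For 6-OHDA the differences of log2 fold changes were -2.31 for Blnk, -2.32 for Nav2, -2.79 for Ctnnd2, -1.77 for Casp4 and -1.71 for Mctp1. For BIBO3304 they were 4.24 for Cfb, 3.47 for Ccr7, 3.34 for Spon1, 3.04 for AA467197, 2.76 for S100a6, 2.53 for Hspe1, 2.49 for Bgn, 2.27 for Cox17, 2.18 for Atp6v0b, 2.15 for Tkt and 1.98 for S100a4. On the negative side they were -4.32 for Tenm4, -3.48 for Bmp2, -3.39 for Dcbld2, -3.14 for Zdhhc14, -3.07 for Mtmr10, -3.06 for Nhlrc3, -2.84 for Plxna4, -2.67 for Blnk, -2.59 for St18, -2.45 for Tanc2, -2.30 for C3ar1, -2.18 for Adgre1, -2.12 for Apoe, -2.12 for Errfi1, -2.03 for Mrc1 and -1.80 for Abca1. The BIBO3304-PDAC samples held 2 and 1 transcripts of Tenm4, so the size of its difference depends on the prior count.

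Responses also differed between interstitial macrophages and other cells of the same samples, by the test of the difference itself. Relative to monocytes, the response to 6-OHDA in unseeded lungs differed by 1.404 for Pde3b and 1.84 for Adgre4, and the response to BIBO3304 by 3.86 for Itga9, 3.29 for Tanc2, 1.42 for Mdfic, -2.12 for Olr1 and -1.39 for Fgr. Each of these calls was lost with 1 sample left out in the same test (highest adjusted p from 0.124 for Fgr to 0.523 for Adgre4). In seeded lungs the response to 6-OHDA differed from that of monocytes by -2.71 for Mt1.

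Relative to alveolar macrophages, the response to 6-OHDA in unseeded lungs differed by 1.45 for Pde3b, 1.24 for Slc16a10, 1.67 for Pot1b, 1.64 for Dock5 and 2.01 for Cep85l, and the response to BIBO3304 by 2.29 for Zdhhc14, 1.19 for Tanc2, 1.28 for Pitpnc1 and -2.34 for Olr1. Each of these calls was also lost with 1 sample left out in the same test (highest adjusted p from 0.0541 for Zdhhc14 and Olr1 to 0.760 for Dock5). In seeded lungs the response to 6-OHDA differed by 2.98 for Spon1, 2.52 for Cfb, 1.62 for Hspe1 and 1.54 for Mdh2, and by -3.89 for Slco2b1, -3.27 for Clmp, -2.86 for Chsy3, -2.61 for Samd4, -2.45 for Mrc1, -2.42 for Ear1, -2.26 for F13a1, -2.21 for Pdgfc, -2.01 for Mt2, -1.90 for Krt79, -1.81 for Pros1, -1.66 for Errfi1, -1.33 for Apoe and -1.28 for Mt1. The response to BIBO3304 there differed by -4.24 for Tenm4, -3.15 for Retnla, -2.44 for Plxna4, -2.16 for Agmo and -2.03 for Errfi1. Values for seeded lungs include sample 2 of vehicle-PDAC, which stands apart. Without it, Krt79 alone of those listed here changed sign, to 0.41. The 6-OHDA differences of Ear1 and Samd4 were then -0.57 and -1.36, and those of Mrc1, Slco2b1 and Spon1 -1.85, -3.49 and 3.28. The BIBO3304 differences of Retnla and Errfi1 were -3.87 and -2.57. Of the genes listed here for alveolar macrophages in seeded lungs, only Mt1 under 6-OHDA also differed from monocytes.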

How the results depend on the processing

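With 2 or 3 samples a group, 1 sample decided many counts. Leaving out 1 sample gave, as lowest and highest counts of called genes, 0 and 13 for 6-OHDA against vehicle, 0 and 14 for BIBO3304 against vehicle, 30 and 453 for 6-OHDA-PDAC against vehicle-PDAC, 0 and 110 for BIBO3304-PDAC against vehicle-PDAC, 0 and 27 for vehicle-PDAC against vehicle, 115 and 502 for 6-OHDA-PDAC against 6-OHDA, 224 and 1216 for BIBO3304-PDAC against BIBO3304, 6 and 153 for 6-OHDA against BIBO3304, 0 and 61 for the 6-OHDA interaction and 0 and 141 for the BIBO3304 interaction. The log2 differences of the share ran, in the same order, from 0.12 to 0.68, -0.29 to -0.01, 1.47 to 1.89, 0.16 to 1.45, 0.37 to 0.68, 1.53 to 2.09, 0.86 to 2.16, 0.32 to 0.87, 1.01 to 1.57 and 0.35 to 1.64. Genes that differed from monocytes ran from 0 to 5 for 6-OHDA, 0 to 92 for BIBO3304, 1 to 25 for 6-OHDA-PDAC and 0 to 8 for BIBO3304-PDAC, and from alveolar macrophages from 1 to 16, 1 to 24, 65 to 367 and 13 to 158. The named genes called were followed over every alternative in which they were tested. Of them, 0 of 3 were called in each for 6-OHDA against vehicle and 0 of 10 for BIBO3304 against vehicle. It was 0 of 14 for BIBO3304-PDAC against vehicle-PDAC, 0 of 32 for 6-OHDA against BIBO3304, and 0 of 5 and 0 of 27 for the 6-OHDA and BIBO3304 interactions. It was 9 of 55 for 6-OHDA-PDAC against vehicle-PDAC, 21 of 87 for 6-OHDA-PDAC against 6-OHDA and 38 of 111 for BIBO3304-PDAC against BIBO3304. Of 5478 values of named genes under the alternatives, 4155 kept direction and side of the threshold, 1274 lost their call, 47 gained one and 2 changed sign, both without sample 2 of vehicle-PDAC. The log2 fold change of Krt79, 6-OHDA-PDAC vs vehicle-PDAC, was 0.16 without that sample and -3.58 without sample 1 of vehicle-PDAC. That of Fabp1, 6-OHDA-PDAC vs vehicle-PDAC, was 0.15 and -3.54.

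Other settings moved counts by over 1.5 times, and the cause was not tested. For 6-OHDA against vehicle the count was 7 with RLE scaling, 44 with no filter, 17 with DESeq2, 1 with at least 100 cells a sample, 0 without the top 5% of cells by transcripts, 0 without cells with dendritic cell transcripts and 1 without cells with alveolar macrophage transcripts. For BIBO3304 against vehicle these were 125 with no filter, 70 with DESeq2, 0 with 100 cells, 35 without the top 5%, 4 without dendritic cell transcripts and 35 with only the 2 groups compared in the fit. For 6-OHDA-PDAC against vehicle-PDAC the count was 102 with only those groups. For BIBO3304-PDAC against vehicle-PDAC it was 94 with no filter, 68 with DESeq2, 12 without dendritic cell transcripts, 51 without alveolar macrophage transcripts and 1 with only those groups. It was 26 with no filter for vehicle-PDAC against vehicle and 631 with 100 cells for BIBO3304-PDAC against BIBO3304. For 6-OHDA against BIBO3304 it was 197 with no filter, 121 with DESeq2, 3 with 100 cells, 126 without the top 5% and 42 with only those groups. The 6-OHDA interaction gave 52 with no filter, 36 with DESeq2, 0 with 100 cells, 2 without the top 5% and 0 without dendritic cell transcripts, and the BIBO3304 interaction 171, 142, 18, 128 and 37. Leaving out both alveolar macrophage transcripts and sample 2 of vehicle-PDAC, chosen after seeing the data, as was leaving out those cells alone, gave 5, 17, 79, 0 and 15 in the first 5 comparisons and 1 and 31 for the interactions. Among macrophages, monocytes, dendritic cells and neutrophils only, the share difference was 0.54 for BIBO3304 against vehicle, 0.85 for BIBO3304-PDAC against BIBO3304 (adjusted p = 0.0690, edgeR) and 1.31 for the 6-OHDA interaction (adjusted p = 0.0458, edgeR), and without alveolar macrophages in the total it was 1.23 for 6-OHDA-PDAC against vehicle-PDAC (adjusted p = 0.0698, edgeR).

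Whether the sample numbers pair the samples was not settled. Of 33 same-numbered pairs, 8 had deviations correlated over 0.1, with no rate for differently numbered pairs to set beside this. With 2 samples a group, pairs between seeded groups also give the same correlation for both numbers. With the number as a replicate block, the counts were 5, 15, 224, 38, 0, 558, 1078, 68, 5 and 49 and the share differences 0.43, -0.15, 1.70, 0.89, 0.45, 1.72, 1.496, 0.58, 1.27 and 1.04, in the order above, and 3 of 15 samples correlated best with their own number.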
